A study of Mus musculus with 31 samples.

Results

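Regulatory T cells (Tregs) of the circulation were set against Tregs of the spleen in mice carrying a mammary tumor. The comparison took the 3 blood libraries and the 3 spleen libraries of KEP mice, chosen by their labelled genotype and tissue and paired by the day and month in their titles, so that 6 of the 31 libraries of the series entered it. KEP mice were K14cre;Cdh1F/F;Trp53F/F animals of the FVB/N strain, sampled with spontaneous mammary tumors of 225 mm2. In this model the keratin 14 promoter directs Cre to epithelium, where it removes E-cadherin (Cdh1) and p53 (Trp53); the Tregs themselves are not its target. Each KEP library was prepared from 1 mouse. The same blood to spleen contrast in tumor-free mice, labelled WT and carrying the same floxed alleles without Cre, stands beside it: 3 blood and 3 spleen libraries, each from a pool of 3 mice. Cells of all groups had been sorted as live CD45+ CD3+ CD4+ CD8- CD25+ events, with no gate on the FOXP3 protein. The labels state lysis of erythrocytes for blood and lungs and no enzymatic digestion for blood or spleen. Neither the labels nor the titles say that the blood and spleen libraries of a date came from the same animal.

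Tregs are CD4 T cells that depend on the transcription factor FOXP3 and the interleukin-2 receptor and that restrain other lymphocytes. They cycle between blood and secondary lymphoid organs such as the spleen: leaving an organ requires the sphingosine 1-phosphate receptor S1PR1, entering and staying depend on chemokine receptors and integrins, and contact with antigen-presenting cells in the organ gives T cell receptor and co-stimulatory signals. Resting (central) Tregs keep genes of naive T cells, whereas effector Tregs carry genes of activation, suppression and tissue homing.

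The KEP blood libraries held 9476533, 11105362 and 11609950 reads assigned to genes, and the KEP spleen libraries held 11465657, 12726090 and 12236525. Here and below, 3 values of a group stand in the order of the title dates 18 May, 22 June and 12 July. The KEP blood libraries came from 70000, 17000 and 70000 sorted cells and every KEP spleen library from 70000. Levels are CPM, read counts scaled to the size of the library after TMM scaling, a correction for its composition. Blood and spleen libraries sharing a date departed from their group means in a like way. The correlations over genes were 0.50, 0.48 and 0.46 for the 3 KEP pairs, while KEP blood and spleen libraries of different dates gave -0.14 to -0.36. Departures from a mean of 3 libraries sum to 0, so positive same-date values by themselves push those of different dates below 0. The date therefore entered the test as a block, so that each blood library was in effect compared with the spleen library of its own date.

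Among 12825 genes tested with edgeR's quasi-likelihood test, 4310 differed between KEP blood and KEP spleen at a Benjamini-Hochberg adjusted p under 0.05, which is 33.6% of them. Of these, 2105 were higher in blood (16.4%) and 2205 lower (17.2%). Changes of at least 2-fold were fewer: 3.09% of genes were called and at least 2-fold higher, and 2.78% were called and at least 2-fold lower. In a fit that also took in the 7 tumor and mammary gland libraries the count was 1427, and 140 genes passed a test that demanded a change beyond 2-fold. The 3 blood libraries lay wholly above or below the 3 spleen libraries for 42.6% of the genes. Below, "rose", "fell", "higher" and "lower" are used of KEP blood relative to KEP spleen, log2 fold changes are blood over spleen with their standard error (SE), and adjusted p-values are from that edgeR fit. A count for a gene list is to be read against these shares, and the median log2 fold change over all genes tested was -0.01.

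The gate was visible in both organs. Foxp3, the factor that defines the lineage, was measured at 1748, 1583 and 1727 CPM in KEP blood, against 1289.6, 1128 and 1463 CPM in KEP spleen. Il2ra, which encodes CD25, the surface marker used in the sort, stood at 814, 633 and 818 CPM in KEP blood, against 591, 524 and 707 CPM in KEP spleen. Foxp3 was higher in blood by 0.39 ± 0.08 on the log2 scale (edgeR adjusted p = 0.000305), and the groups did not overlap; its exons overlap those of Flicr and Ccdc22, and the counting strand is not stated. Il2ra was higher by 0.31 ± 0.08 with overlapping groups (edgeR adjusted p = 0.00347), and this call was lost without the KEP spleen library of 18 May (adjusted p = 0.063) and without the date block (adjusted p = 0.11). Cd4 and Cd3e, the co-receptor and a receptor chain of helper T cells, showed no call, with log2 fold changes of 0.13 ± 0.06 and -0.07 ± 0.07, and Cd8a stayed at or below 0.378 CPM in each of these 6 libraries. The summed level of 10 pan-T genes ranged from 6809 to 7473 CPM in KEP blood and from 7098 to 7265 CPM in KEP spleen.

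RNA of platelets and red cells separated the organs further than any T cell gene list did. All 12 platelet markers rose, with a median log2 fold change of 5.17, and their summed level was 443, 283 and 315 CPM in KEP blood, against 14.4, 6.05 and 10.3 CPM in KEP spleen. Pf4 (platelet factor 4, a chemokine of platelet granules) was found at 37.2, 23.98 and 22.7 CPM in KEP blood, against 0.929, 0.378 and 0.785 CPM in KEP spleen. Every blood library stood far above every spleen library. Itga2b, the platelet integrin chain CD41, was found at 122, 83.9 and 96.8 CPM in KEP blood, against 4.98, 2.88 and 4.002 CPM in KEP spleen, with a log2 fold change of 4.67 ± 0.22 (edgeR adjusted p = 4.13e-11). The platelet markers together made up a small part of each blood library, and the same 12 genes summed to 119 to 281 CPM in WT blood and 2.57 to 9.57 CPM in WT spleen. In bulk RNA, more platelets per sorted cell and more RNA per platelet cannot be told apart.

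Red cell markers summed to 2050.3, 4590.4 and 4146 CPM in KEP blood, against 315, 651 and 141 CPM in KEP spleen. Of 12 tested, 7 rose and 2 fell. Hbb-bs, an adult beta globin, rose by 4.01 ± 0.68 (edgeR adjusted p = 0.000601), with 1104, 1571 and 1797 CPM in KEP blood, against 103, 218 and 30.9 CPM in KEP spleen; the haemoglobin genes are near-identical copies, so the share of each is uncertain. The pair that fell are carbonic anhydrases: Car1 had 2 reads in the KEP blood libraries together and 122 in the KEP spleen libraries. Car2 stood at 0.522, 3.52 and 1.88 CPM in KEP blood, against 9.88, 8.78 and 8.63 CPM in KEP spleen.

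Markers of other blood and spleen cells, which the gates on CD3, CD4 and CD8 are meant to remove, were mostly low in both organs, and several were lower in blood. Of 15 tested markers of monocytes and macrophages, 7 fell and 2 rose, and the list summed to 90.6, 76.3 and 76.9 CPM in KEP blood, against 64.5, 61.8 and 74.2 CPM in KEP spleen. C1qa, a complement chain of tissue macrophages, had 0 reads in the KEP blood libraries together and 56 in KEP spleen, which makes it at least 16-fold lower in blood at a floor of 3 reads over the group. Vcam1, an adhesion molecule of splenic macrophages and stroma, stood at 0.418, 0 and 0.256 CPM in KEP blood, against 3.89, 2.57 and 4.39 CPM in KEP spleen. Lyz2, the lysozyme of myeloid cells, went the other way at 46.2, 22.4 and 31.7 CPM in KEP blood, against 7.77, 1.36 and 11.8 CPM in KEP spleen, and its call was lost without the KEP blood library of 18 May (adjusted p = 0.083) or without the KEP spleen library of 22 June (adjusted p = 0.057). Itgam, the other marker that rose, stood at 27.7, 23.4 and 29.8 CPM in KEP blood, against 10.3, 6.36 and 15.4 CPM in KEP spleen. Its groups did not overlap, and the log2 fold change was 1.38 ± 0.20 (edgeR adjusted p = 1.42e-05).

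Of 11 tested B cell markers 4 fell (7 without the KEP blood library of 18 May), among them Cr2, the complement receptor CD21, at 0.9402, 0 and 0.341 CPM in KEP blood, against 15.04, 4.69 and 7.93 CPM in KEP spleen. The list summed to 855, 825 and 1001 CPM in KEP blood, against 889, 710.1 and 964 CPM in KEP spleen, most of it from Ighm. Of 9 dendritic cell markers 5 fell, though no more than 4 did in any fit without 1 of these libraries, and the list summed to 237, 108 and 180.04 CPM in KEP blood, against 282, 133 and 236 CPM in KEP spleen. Of 10 neutrophil markers only Ngp fell, and the list summed to 10.9, 12.9 and 34.6 CPM in KEP blood, against 13.6, 11.4 and 120.2 CPM in KEP spleen; the KEP spleen library of 12 July was the highest, and without it the call of Ngp was lost (adjusted p = 0.097). Of 9 markers of CD8 T and NK cells 2 fell, Ccl5 and Klrb1c, and the list summed to 69.8, 227 and 88.3 CPM in KEP blood, against 149, 302 and 158 CPM in KEP spleen. The 4 tested markers of mast cells, basophils and eosinophils were not called, the smallest edgeR adjusted p being 0.116 for Ms4a2. Among 5 plasma cell markers Sdc1 rose and Igj fell, among 10 of stroma and endothelium Kdr and Pecam1 rose, and among 4 of epithelium Krt18 rose. These calls were weak. Sdc1 lost its call without any 1 library other than the KEP blood library of 18 May (adjusted p up to 0.081), and Igj without any 1 other than the KEP spleen library of 22 June (adjusted p up to 0.12). Pecam1 lost it without either library of 18 May, the KEP blood library of 12 July or the KEP spleen library of 22 June (adjusted p up to 0.26). Kdr lost it without the KEP spleen library of 22 June (adjusted p = 0.087), and Krt18 without either library of that date (adjusted p = 0.059 and 0.074). Without the date block Sdc1, Igj and Pecam1 were not called. The part of these cells in the T cell gene lists below was not tested.

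**Figure D1:**
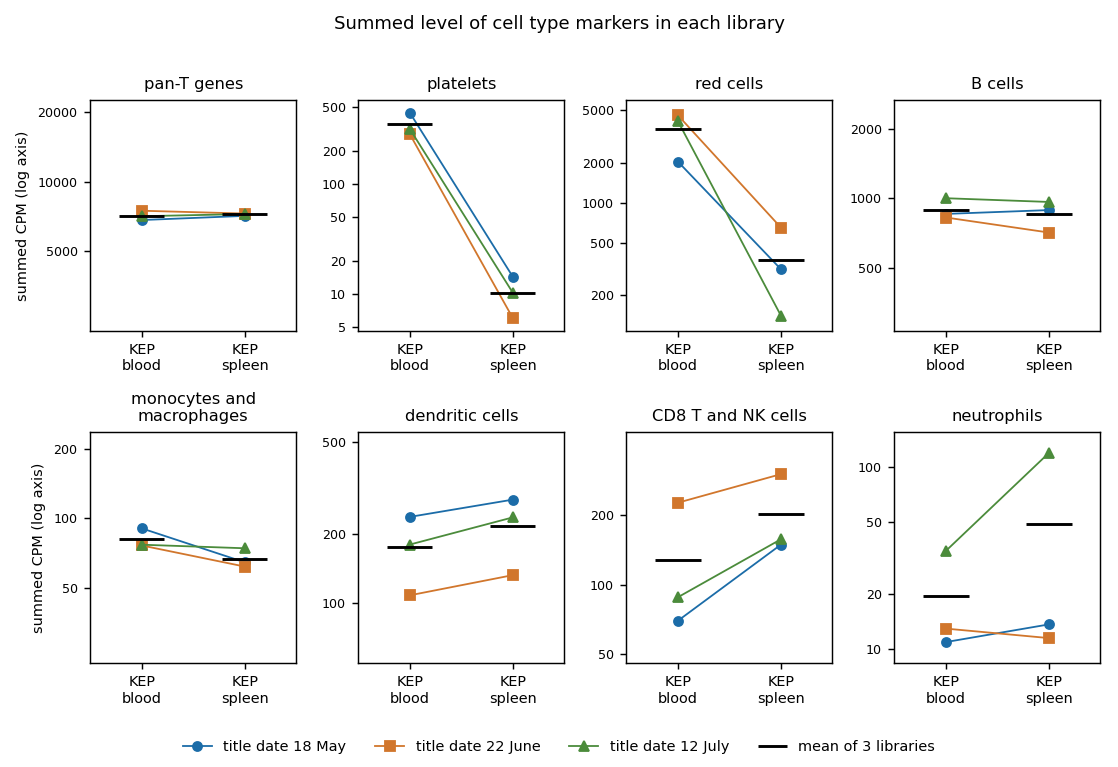
Summed CPM of 8 marker lists (log axes, each at least a decade high) in the 3 KEP blood and 3 KEP spleen libraries. Points joined by a line share a title date and black bars are group means; platelet and red cell markers are far higher in each blood library, while pan-T genes lie between 6809 and 7473 CPM throughout.

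The genes with the smallest p among those at least 2-fold changed, with at least 5 CPM in an organ and no overlap between the groups, were on the higher side largely genes known from platelets although the marker lists had been set aside. They were Alox12 (platelet 12-lipoxygenase), F5 (coagulation factor V), Myl9, Plek (pleckstrin), Rgs18, Slc6a4 (the serotonin transporter), Nrgn, Mfsd2b and Pcp4l1, with log2 fold changes from 3.11 for Plek to 5.87 for Rgs18. Alox12 was found at 52.96, 30.8 and 35.5 CPM in KEP blood, against 2.703, 0.5297 and 0.942 CPM in KEP spleen, and its groups were far apart. Mmrn1, which encodes a protein of platelet granules, had the largest log2 fold change among the genes named, 5.89 ± 0.65, at 11.1, 5.05 and 9.89 CPM in KEP blood, against 0.338, 0.0757 and 0 CPM in KEP spleen. Slc6a4 was found at 15.8, 11.9 and 16.7 CPM in KEP blood, against 0.422, 0.227 and 0.157 CPM in KEP spleen and averaged 0.458 CPM in KEP lung and 0.113 CPM in KEP lymph node.

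The other 3 of those 12 were well expressed in every library of both organs. Nhsl2, an adaptor of the Nance-Horan family, was found at 117, 79.9 and 128 CPM in KEP blood, against 39.4, 27.2 and 45.7 CPM in KEP spleen (log2 fold change 1.53 ± 0.11, edgeR adjusted p = 7.62e-11). Raph1, lamellipodin, which guides actin at the leading edge of migrating cells, was found at 159.8, 99.4 and 98.8 CPM in KEP blood, against 55.4, 50.1 and 45.3 CPM in KEP spleen (log2 fold change 1.22 ± 0.09). Cmah, an enzyme that converts sialic acid, was found at 221, 179 and 199 CPM in KEP blood, against 98.5, 89.3 and 92.1 CPM in KEP spleen (log2 fold change 1.10 ± 0.08). These 3 kept their direction and call in each fit that left out 1 KEP library.

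Genes of Treg identity were mostly higher in blood. Of 15 tested, 8 rose and 2 fell, with a median log2 fold change of 0.29. Ikzf2, the Treg-associated factor Helios, was found at 1076, 736 and 951 CPM in KEP blood, against 501, 446 and 504 CPM in KEP spleen. Ctla4, the inhibitory receptor that competes for co-stimulatory ligands, was found at 762, 576 and 759.6 CPM in KEP blood, against 346, 327 and 423 CPM in KEP spleen. Neither gene had overlapping groups, and their log2 fold changes were 0.92 ± 0.11 and 0.94 ± 0.14 (edgeR adjusted p = 2.33e-06 and 0.000138). Nrp1, neuropilin 1, a surface marker of thymus-derived Tregs in mice, rose by 0.63 ± 0.07. The members that fell were Gpr83, a receptor enriched in Tregs, and Folr4, a Treg surface marker of the folate receptor family. Gpr83 stood at 19.95, 52.2 and 23.2 CPM in KEP blood, against 106, 116 and 87.7 CPM in KEP spleen. Folr4 stood at 190.02, 225 and 203 CPM in KEP blood, against 493, 387 and 426 CPM in KEP spleen. Their KEP lymph node means were 194 and 497 CPM.

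Effector and suppression genes rose in larger number, 20 of 29 tested, against 6 that fell, with a median of 0.59. Il1rl1, the interleukin-33 receptor ST2 carried by tissue Tregs (ENSMUSG00000026069, chromosome 1, 40429570 to 40465415 in GRCm38), was found at 1559, 1026 and 1308 CPM in KEP blood, against 498, 329.6 and 519 CPM in KEP spleen. The groups did not overlap, and the log2 fold change was 1.54 ± 0.10 (edgeR adjusted p = 4.16e-10). The TIM-3 gene Havcr2, an inhibitory receptor, was found at 28.9, 28.03 and 37.4 CPM in KEP blood, against 11.3, 11.8 and 12.6 CPM in KEP spleen. It rose by 1.39 ± 0.15. Prdm1, the effector factor BLIMP-1, was found at 174, 151 and 144 CPM in KEP blood, against 94.3, 85.7 and 88.4 CPM in KEP spleen. It rose by 0.80 ± 0.09. The S100 proteins S100a10 and S100a6, calcium-binding partners of annexins and the cytoskeleton, rose by 0.89 ± 0.09 and 0.98 ± 0.10.

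The 6 members that fell were Il10, Tnfrsf9, Lag3, Pdcd1, Tgfb1 and Ebi3. Il10, the suppressive cytokine, was low in both organs at 2.298, 0.721 and 0.938 CPM in KEP blood, against 7.94, 2.42 and 4.47 CPM in KEP spleen, without overlap, and fell by 1.90 ± 0.40 on the log2 scale (edgeR adjusted p = 0.00133). Tnfrsf9, the co-stimulatory receptor 4-1BB, was found at 68.6, 34.97 and 64.05 CPM in KEP blood, against 119, 72.7 and 117 CPM in KEP spleen. Its log2 fold change was -0.89 ± 0.18. Lag3 and Pdcd1, inhibitory receptors, had log2 fold changes of -0.91 ± 0.15 and -0.60 ± 0.13 with overlapping groups, and the call of Pdcd1 was lost without the date block (adjusted p = 0.053). Tgfb1 and Ebi3, which encode a suppressive cytokine and a subunit of another, had log2 fold changes of -0.32 and -0.39.

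**Figure D2:**
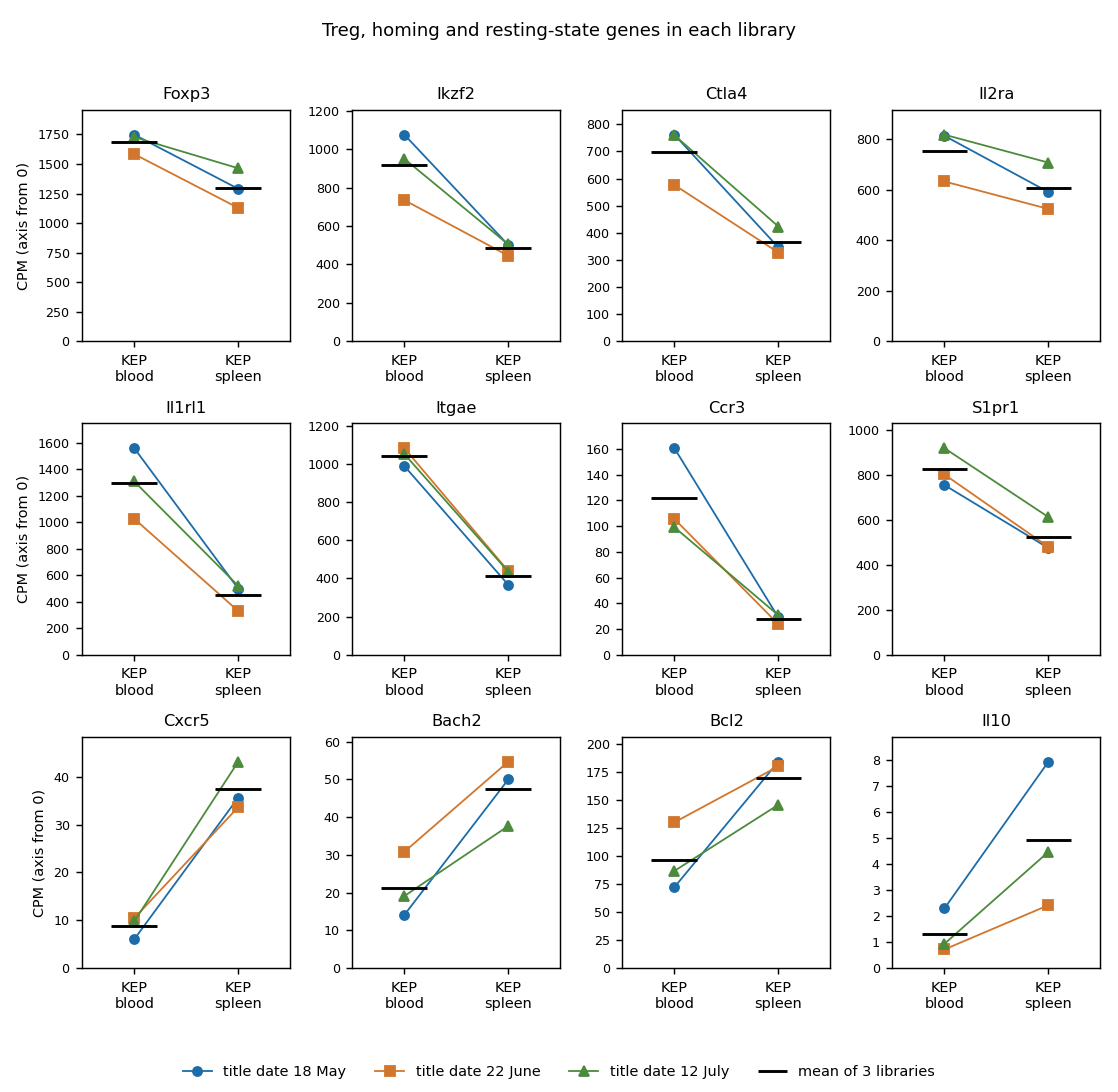
CPM of 12 Treg, homing and resting-state genes (axes from 0) in the 3 KEP blood and 3 KEP spleen libraries. Points joined by a line share a title date and black bars are group means; Foxp3, Ikzf2, Ctla4, Il1rl1, Itgae, Ccr3 and S1pr1 are higher in blood in all 3 pairs, and Cxcr5, Bach2, Bcl2 and Il10 are lower in all 3.

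Genes that govern where T cells travel were called higher in blood more often than lower. In the list of egress and recirculation 7 of 16 rose and the other 9 were not called, with a median of 0.22. S1pr1, whose product carries T cells out of lymphoid organs, was found at 757, 804 and 921 CPM in KEP blood, against 476, 481 and 614 CPM in KEP spleen. It rose by 0.66 ± 0.09 (edgeR adjusted p = 4.44e-06). S1pr4, another sphingosine 1-phosphate receptor, rose by 0.71 ± 0.11, and Itgb7, the beta 7 integrin chain of gut homing, by 0.39 ± 0.07. Cd69, whose product takes S1PR1 off the cell surface, rose as well, at 89.2, 79.1 and 79.6 CPM in KEP blood, against 51.9, 54.1 and 53.99 CPM in KEP spleen; its log2 fold change was 0.63 ± 0.11, and the call was lost after correction for GC content and length (adjusted p = 0.12). Ccr7, a chemokine receptor for entry into lymph nodes, was not called, with a log2 fold change of -0.32.

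Of 15 receptors for tissue and inflammatory chemokines 8 rose and 3 fell, with a median of 0.81. Ccr3, an eotaxin receptor, was found at 161, 106 and 99.1 CPM in KEP blood, against 28.97, 23.7 and 30.7 CPM in KEP spleen. It rose by 2.1 ± 0.19 (edgeR adjusted p = 8.13e-07). Ccr10 and Ccr6, receptors for skin and mucosal chemokines, rose by 1.33 ± 0.17 and 0.81 ± 0.11. Gpr15, a receptor for homing to the large intestine, was found at 34.9, 31.9 and 72.2 CPM in KEP blood, against 19.3, 13.8 and 40.3 CPM in KEP spleen, so that the groups overlapped, though each blood library was above the spleen library of its date; the call was lost without the date block (adjusted p = 0.13), and part of its exons overlaps Cpox. Cxcr5, the receptor that leads T cells into B cell follicles, did the opposite at 6.06, 10.5 and 9.81 CPM in KEP blood, against 35.6, 33.7 and 43.2 CPM in KEP spleen. The groups were far apart, and the log2 fold change was -2.09 ± 0.16 (edgeR adjusted p = 1.03e-09). Ccr8 and Ccr9 fell by 0.99 ± 0.16 and 1.44 ± 0.29 on the log2 scale, both at low levels, and exons of Ccr9 overlap another gene.

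Integrin chains rose in 8 of 14, with a median of 0.33, and the other 6 were not called. Itgae, the alpha E chain (CD103) that binds E-cadherin, was found at 988, 1082 and 1051 CPM in KEP blood, against 366, 438 and 434 CPM in KEP spleen. It rose by 1.34 ± 0.15 (edgeR adjusted p = 8.14e-06). Its KEP blood mean also stood above the KEP lung mean of 764 CPM and the KEP lymph node mean of 791 CPM. Itgb1, the beta 1 chain, rose by 0.75 ± 0.09, Itga2 by 1.45 ± 0.16 and Itgb5 by 2.78 ± 0.23. Platelets carry integrins of the beta 1 and beta 3 families, and the summed platelet markers were 33.9-fold higher in blood by group mean. In KEP lung, where these markers averaged 7.19 CPM, Itgb1, Itga2 and Itgb5 averaged 1037, 54.9 and 3.66 CPM. Their KEP blood means were 1189, 66.6 and 14.3 CPM. The part of platelet RNA in these rises was not tested. Cytoskeleton and motility genes were split, 9 of 25 rising and 4 falling (2 without the KEP spleen library of 18 May). Vim, the intermediate filament vimentin, was found at 2679, 2941 and 2647 CPM in KEP blood, against 1438, 1447 and 1476 CPM in KEP spleen. It rose by 0.92 ± 0.09. Actb, beta actin, was found at 4721, 6046 and 5700.3 CPM in KEP blood, against 6828, 7156 and 7293 CPM in KEP spleen. It fell by 0.37 ± 0.07 on the log2 scale.

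Immediate early genes, which T cell receptor signals switch on within a short time, fell more often than they rose. In the list of immediate early genes and AP-1 members 12 of 25 fell and 3 rose, with a median of -0.43. Egr2, a zinc finger factor induced by T cell receptor signals (ENSMUSG00000037868, chromosome 10, 67535475 to 67542188 in GRCm38), was found at 0.418, 0.541 and 0.0853 CPM in KEP blood, against 22.7, 16.3 and 13.8 CPM in KEP spleen. It was almost unread in blood, with 11 reads in the 3 blood libraries together and 660 in the 3 spleen libraries, and the log2 fold change was -5.62 ± 0.31 (edgeR adjusted p = 1.06e-11). Its relatives Egr1 and Egr3 fell with it. Egr1 was found at 7.42, 7.21 and 4.86 CPM in KEP blood, against 54.8, 48.8 and 45.8 CPM in KEP spleen. Egr3 was found at 1.57, 0.631 and 0.426 CPM in KEP blood, against 12.5, 11.2 and 9.89 CPM in KEP spleen. Their log2 fold changes were -2.94 ± 0.19 and -3.72 ± 0.35, and neither had overlapping groups. Nr4a3, an orphan nuclear receptor induced by the same signals, was found at 2.298, 2.43 and 1.71 CPM in KEP blood, against 15.04, 16.2 and 16.4 CPM in KEP spleen (log2 fold change -2.90 ± 0.26). Ier5 was found at 106, 107 and 105 CPM in KEP blood, against 173, 167 and 171 CPM in KEP spleen (log2 fold change -0.68 ± 0.07).

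Fos, Fosb and Klf6 were the 3 members that rose. Fos, an AP-1 subunit, was found at 65.1, 42.4 and 23.6 CPM in KEP blood, against 12.8, 17.6 and 5.65 CPM in KEP spleen. It rose by 1.81 ± 0.46 (edgeR adjusted p = 0.00964); the call was lost without the KEP spleen library of 18 May (adjusted p = 0.06) and in a fit of KEP libraries alone (adjusted p = 0.064). Fosb was found at 7.63, 3.97 and 4.18 CPM in KEP blood, against 2.96, 2.42 and 2.51 CPM in KEP spleen. It rose by 0.96 ± 0.24, a call lost without the date block (adjusted p = 0.061). Klf6, a Krueppel-like factor, was found at 535, 497 and 495 CPM in KEP blood, against 237, 223 and 258 CPM in KEP spleen. It rose by 1.09 ± 0.12 (edgeR adjusted p = 2.1e-06). The lungs, which were digested with enzyme, held by group mean 636 CPM of Fos, 1279 CPM of Fosb and 1265 CPM of Nr4a3, far above blood and spleen. Tissue and digestion cannot be told apart in these lung values, and the cause was not tested. With correction for GC content and length the median of the list was -0.12, with 10 members lower and 5 higher.

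A promoter window of Egr2 is shown because Egr2 had the largest fall of the immediate early genes. Serum response factor, which acts on such genes, binds a short sequence called the CArG box. RefSeq gave 5 windows for Egr2, and the one shown was chosen as the first that holds a match. The window is 250 bases before to 50 after a RefSeq start site (GRCm38.p6, chr10:67537316-67537615, plus strand), with the letters of the single CArG box match in capitals, 72 bases before the start.

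Egr2: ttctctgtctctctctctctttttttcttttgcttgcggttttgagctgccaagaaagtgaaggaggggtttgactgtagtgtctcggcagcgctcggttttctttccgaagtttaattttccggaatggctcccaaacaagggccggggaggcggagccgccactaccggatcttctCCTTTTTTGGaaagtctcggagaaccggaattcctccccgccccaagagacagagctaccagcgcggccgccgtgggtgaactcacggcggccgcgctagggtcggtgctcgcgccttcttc

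CArG box letters, CC then 6 of A or T then GG, searched on both strands, occurred in the windows of 3 of the 21 list members that RefSeq promoters covered (Egr2, Dusp5 and Zfp36) and in 1.81% of the 27025 genes with a window. Of these 3, Egr2 and Zfp36 fell and Dusp5 was not called. Other motifs were searched in the same 21 members. The CRE letters occurred in 2 of them and in 2.03% of genes, and the AP-1 letters in 1 and in 8.97% of genes. The list holds known immediate early genes, so these shares are a description of those genes.

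NF-kB genes, which co-stimulation and tumor necrosis factor receptors induce, fell in 13 of 18 and rose in 1, with a median of -0.43. Tnf, the cytokine itself (ENSMUSG00000024401, chromosome 17, 35199381 to 35202007 in GRCm38), was found at 4.49, 7.48 and 6.91 CPM in KEP blood, against 26.9, 29.7 and 33.2 CPM in KEP spleen. The log2 fold change was -2.24 ± 0.14 (edgeR adjusted p = 1.52e-11), with a wide gap between the groups. Relb and Nfkb2, the subunits of the non-canonical pathway, fell as well. Relb was found at 25.3, 25.2 and 31.98 CPM in KEP blood, against 63.9, 65.6 and 65.2 CPM in KEP spleen. Nfkb2 was found at 75.5, 67.5 and 89.3 CPM in KEP blood, against 133, 119 and 149 CPM in KEP spleen. They fell by 1.24 ± 0.11 and 0.79 ± 0.08 on the log2 scale without overlap. Cd83, a surface protein induced on activation, was found at 17.7, 10.6 and 21.3 CPM in KEP blood, against 58.5, 35.6 and 58.1 CPM in KEP spleen. It fell by 1.62 ± 0.15. The member that rose was Tnfaip3, which encodes A20, an inhibitor of NF-kB signalling, at 296, 263 and 259.7 CPM in KEP blood, against 160.2, 151 and 203 CPM in KEP spleen. Its log2 fold change was 0.67 ± 0.23 (edgeR adjusted p = 0.0362), the call was lost without any 1 of 5 of the 6 libraries, and its KEP lung mean was 4015 CPM.

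Promoter windows of Nfkb2 and Tnfaip3 are shown side by side because both hold matches to the NF-kB consensus while their levels differed in opposite directions. The rise of Tnfaip3 was a weak call, lost without most single libraries as given above. RefSeq gave 3 windows for Nfkb2 and 2 for Tnfaip3, and for each gene the first with a match was chosen. The windows span 250 bases before to 50 after a RefSeq start (GRCm38.p6; Nfkb2 at chr19:46304487-46304786 on the plus strand, Tnfaip3 at chr10:19015361-19015660 on the minus strand), each written 5′ to 3′ on the strand of the gene, with matches in capitals.

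Nfkb2: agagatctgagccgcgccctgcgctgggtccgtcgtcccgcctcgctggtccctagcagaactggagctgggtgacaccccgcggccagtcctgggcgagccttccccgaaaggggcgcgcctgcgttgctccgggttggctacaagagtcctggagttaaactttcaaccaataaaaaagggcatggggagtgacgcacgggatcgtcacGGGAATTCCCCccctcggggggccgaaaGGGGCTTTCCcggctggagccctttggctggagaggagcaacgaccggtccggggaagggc

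Tnfaip3: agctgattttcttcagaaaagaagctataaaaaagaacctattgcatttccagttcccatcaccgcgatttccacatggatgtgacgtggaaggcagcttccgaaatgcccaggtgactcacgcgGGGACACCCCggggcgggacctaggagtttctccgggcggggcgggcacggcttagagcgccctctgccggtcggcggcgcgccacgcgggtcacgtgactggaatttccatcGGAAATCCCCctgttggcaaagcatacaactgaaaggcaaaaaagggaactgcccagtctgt

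In Nfkb2 there were 3 matches, of which a pair overlap in the first capital run, and in Tnfaip3 there were 2. The NF-kB consensus, searched on both strands, occurred in the windows of 8 of the 14 list members covered and in 5.14% of the 27025 genes with a window. The list was drawn up from genes known to respond to NF-kB, so its share is a description of those genes.

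**Figure D3:**
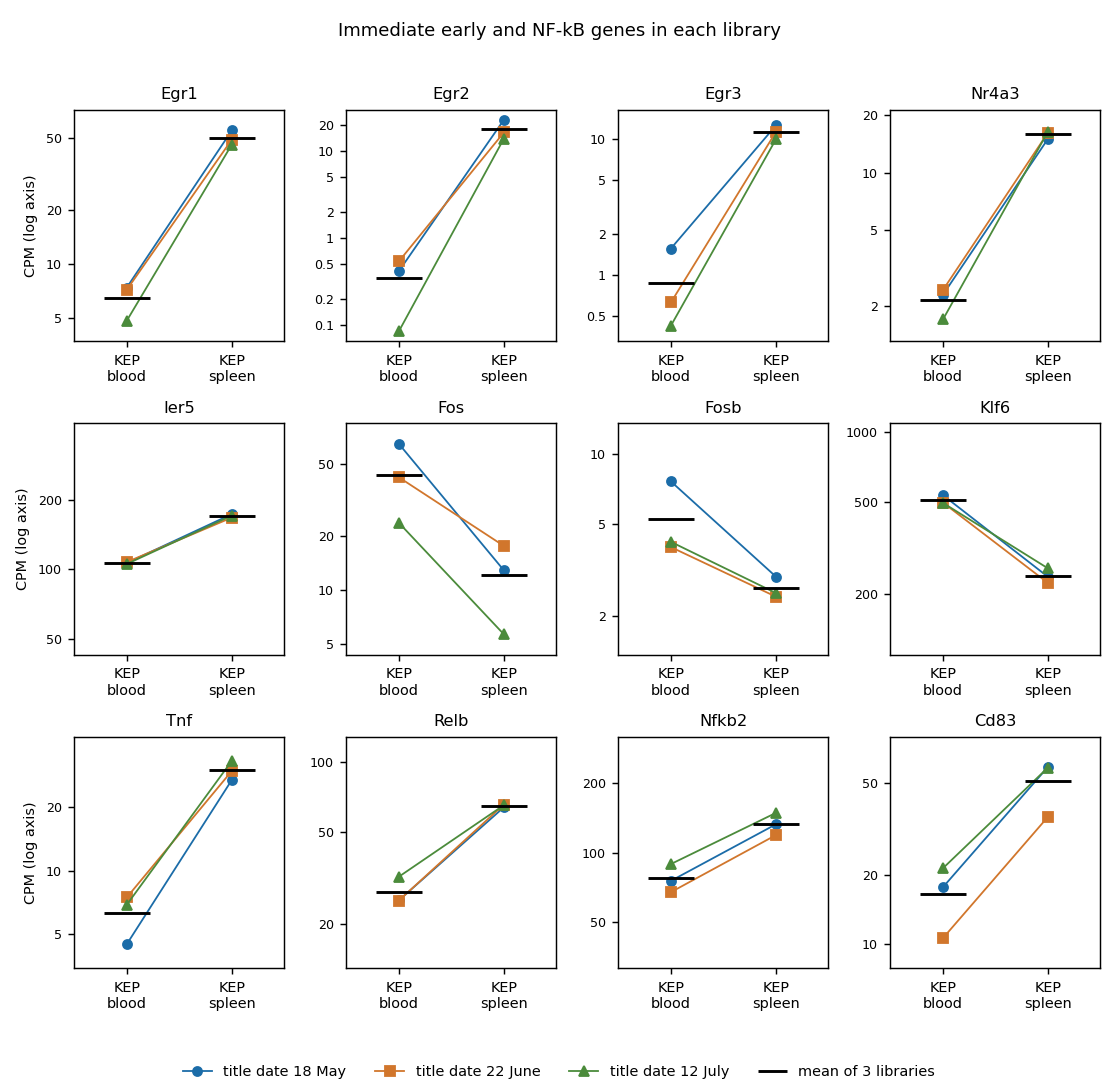
CPM of 12 immediate early and NF-kB genes (log axes) in the 3 KEP blood and 3 KEP spleen libraries. Points joined by a line share a title date and black bars are group means; Egr1, Egr2, Egr3, Nr4a3, Ier5, Tnf, Relb, Nfkb2 and Cd83 are lower in blood in all 3 pairs, and Fos, Fosb and Klf6 are higher in all 3.

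Other genes of T cell receptor and cytokine signalling changed less. Of 24 genes of the receptor complex and its signalling chain 7 fell and 2 rose, with a median of -0.04; of the pair that rose, 1 was left without the KEP blood library of 12 July or the KEP spleen library of 18 May. Zap70, the kinase that binds the phosphorylated receptor, had a log2 fold change of -0.49 ± 0.07 and Fyn, a Src family kinase, one of -0.36 ± 0.06. Of 15 genes of interleukin-2 and STAT5 signalling 4 fell and 2 rose, and leaving out a KEP library took these counts down to 1 each (both without the KEP blood library of 12 July). Gfi1, a transcriptional repressor, was found at 29.04, 18.6 and 20.9 CPM in KEP blood, against 39.03, 40.9 and 49.4 CPM in KEP spleen (log2 fold change -0.92 ± 0.13). The kinase gene Pim1 was found at 1290.4, 1075 and 1199 CPM in KEP blood, against 692, 605 and 716 CPM in KEP spleen (log2 fold change 0.82 ± 0.08), with exons that overlap a predicted gene. The feedback inhibitors Cish, Socs1 and Socs3 had log2 fold changes of -0.36 ± 0.12, -0.81 ± 0.22 and -0.40 ± 0.14, and each lost its call in at least 1 of the fits that left out a KEP library.

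Genes of resting and central T cells fell in 8 of 14 and rose in 3, with a median of -0.46. Bach2, a repressor that holds Tregs in a resting state, was found at 14.1, 30.8 and 19.1 CPM in KEP blood, against 50.01, 54.7 and 37.7 CPM in KEP spleen. Its log2 fold change was -1.17 ± 0.16 (edgeR adjusted p = 1.94e-05). Bcl2, the survival factor, was found at 72.2, 129.98 and 86.7 CPM in KEP blood, against 184, 179.9 and 146 CPM in KEP spleen. Its log2 fold change was -0.85 ± 0.11 (edgeR adjusted p = 1.21e-05); in a fit of the 6 libraries alone that call was lost (adjusted p = 0.11). The blood library of 22 June, from 17000 cells, was the highest blood library for both. Il7r, the interleukin-7 receptor, was among the 3 that rose, at 989.6, 738 and 882 CPM in KEP blood, against 503, 492 and 558 CPM in KEP spleen (log2 fold change 0.75 ± 0.15). Without the date block 4 of the 14 fell.

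Genes of helper T cell lineages fell in 6 of 18, with 1 that rose and a median of -0.73; 3 fell without the KEP blood library of 18 May or that of 12 July. Bcl6, the factor of follicular T cells, was found at 10.2, 12.4 and 4.86 CPM in KEP blood, against 21.8, 25.7 and 17.1 CPM in KEP spleen. Its log2 fold change was -1.25 ± 0.19 (edgeR adjusted p = 3.35e-05), in the same direction as Cxcr5. Rora, a nuclear receptor of type 2 and type 17 cells, was found at 402, 349.7 and 361 CPM in KEP blood, against 177, 192 and 182 CPM in KEP spleen. It rose by 1.01 ± 0.12. Tbx21, the factor T-bet of type 1 cells, was found at 6.16, 39.6 and 8.19 CPM in KEP blood, against 35.5, 75.7 and 39.2 CPM in KEP spleen. Klrb1c, the receptor NK1.1, was found at 9.82, 40.2 and 15.4 CPM in KEP blood, against 28.6, 64.02 and 36.6 CPM in KEP spleen. Both were highest on 22 June in blood and in spleen, and Zbtb16, the factor PLZF of innate-like T cells, followed the same dates at 3.55, 28.1 and 3.41 CPM in KEP blood, against 25.7, 49.1 and 17.5 CPM in KEP spleen. The calls of these 3 genes, at log2 fold changes of -1.62 ± 0.42, -1.04 ± 0.36 and -1.61 ± 0.42, were lost without the date block (adjusted p = 0.083, 0.12 and 0.14).

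The machinery of protein synthesis was lower in blood. Of 51 cytosolic ribosomal protein genes 42 fell and the other 9 were not called, with a median of -0.40 and each of the 51 log2 fold changes below 0. Rpl8 was found at 659.7, 785 and 685 CPM in KEP blood, against 1205, 1100.0 and 1079 CPM in KEP spleen. Rpl3 was found at 594, 581 and 594 CPM in KEP blood, against 859.6, 815 and 818 CPM in KEP spleen. They had log2 fold changes of -0.67 ± 0.08 and -0.49 ± 0.06 (edgeR adjusted p = 4.15e-07 and 1.27e-06); these genes have many processed pseudogenes, so single values are uncertain. In 33 genes of ribosome biogenesis, a list chosen after their values were seen, 32 fell and 1 was not called, with a median of -0.55. Rrp12, which takes part in the export of ribosomal subunits, was found at 12.8, 14.8 and 13.05 CPM in KEP blood, against 37.1, 29.3 and 28.7 CPM in KEP spleen. It fell by 1.21 ± 0.13. Mdn1, an ATPase that matures the large subunit, was found at 93.3, 78.7 and 75.99 CPM in KEP blood, against 199.6, 151 and 127 CPM in KEP spleen. It fell by 0.93 ± 0.09. The spread among ribosomal proteins was narrow beside that of the immediate early genes, whose log2 fold changes ran from -5.62 to 1.81.

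Heat shock chaperones fell in 9 of 14, with a median of -0.37, and the other 5 were not called. Hsp90ab1, a cytosolic HSP90, was found at 1462, 1119.8 and 845 CPM in KEP blood, against 2345, 1635 and 1328 CPM in KEP spleen; the groups overlapped, yet each blood library was below the spleen library of its date, and the log2 fold change was -0.63 ± 0.07 (edgeR adjusted p = 4.48e-07). Without the date block 4 of the 14 fell. Mitochondrially encoded genes rose in 8 of 9 tested, with a median of 0.69, and mt-Co1, a subunit of cytochrome oxidase, was found at 3974, 2710.3 and 2844 CPM in KEP blood, against 2056, 1833 and 1570.0 CPM in KEP spleen. Its log2 fold change was 0.80 ± 0.16, and the list counted 5 without the KEP blood library of 18 May, 3 without the date block and 4, with a median of 0.37, after correction for GC content and length. Of 20 nuclear genes of oxidative phosphorylation 5 were called lower, with a median of -0.13, beside 17.2% of all genes tested. Without any 1 library other than the KEP blood library of 22 June, 2 or 3 fell. Glycolysis and hypoxia genes were even at 4 rising and 4 falling of 24, with 0 falling without the KEP blood library of 12 July, and in cholesterol and fatty acid synthesis 7 of 22 fell and 1 rose (4 fell without that blood library and 3 without the KEP spleen library of 22 June), with Lss, lanosterol synthase, at 13.3, 14.4 and 13.99 CPM in KEP blood, against 25.9, 24.1 and 25.1 CPM in KEP spleen (log2 fold change -0.85 ± 0.14).

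The remaining lists were mixed. Clock genes rose in 8 of 17 and fell in 2: Hlf, a clock-controlled factor, was found at 60.3, 53.7 and 47.6 CPM in KEP blood, against 20.5, 24.5 and 19.4 CPM in KEP spleen. It rose by 1.32 ± 0.14. Per2 was found at 3.76, 4.597 and 2.22 CPM in KEP blood, against 8.87, 10.4 and 6.59 CPM in KEP spleen, with a log2 fold change of -1.30 ± 0.21, and the hour of sampling is not given in the sources used here. Of 13 glucocorticoid-responsive genes 5 rose and 2 fell, and Tsc22d3, the mediator GILZ, was found at 553, 563 and 545 CPM in KEP blood, against 289.99, 263 and 308 CPM in KEP spleen (log2 fold change 0.95 ± 0.13). The genes of the type I interferon response split into 5 up and 6 down of 27, either count falling to 3 without some single libraries, and those of the interferon gamma response into 3 up and 8 down of 20, with Irf8 at 13.3, 12.7 and 14.2 CPM in KEP blood, against 27.7, 25.96 and 28.6 CPM in KEP spleen (log2 fold change -1.03 ± 0.12). GIMAP GTPases, which support survival of T cells, fell in 6 of 8, with Gimap4 at 441, 545 and 616 CPM in KEP blood, against 689, 771 and 891 CPM in KEP spleen. In the BCL2 family 4 of 16 rose (2 without the KEP blood library of 18 May or the KEP spleen library of 22 June) and 1 fell, and Pmaip1, the death promoter NOXA, was found at 66.5, 53.5 and 60.98 CPM in KEP blood, against 30.3, 23.8 and 25.3 CPM in KEP spleen (log2 fold change 1.19 ± 0.12). Proliferation genes had 3 rising and 2 falling of 30, and 9 rising without the KEP blood library of 18 May: Mki67 was found at 209, 140.2 and 134 CPM in KEP blood, against 168, 73.5 and 66.3 CPM in KEP spleen with overlapping groups, and its call (log2 fold change 0.77 ± 0.20) was lost without the date block (adjusted p = 0.33).

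In the fit with all 31 libraries the counts were smaller, at 9 rising effector genes, 1 rising gene each of identity and egress, 4 rising integrin chains, 9 falling immediate early genes, 5 falling NF-kB genes and 29 falling ribosomal proteins. There 0 of the 6 falling effector genes, 0 of the 7 falling T cell receptor genes and 0 of the 6 falling GIMAP genes were counted, and 1 falling gene each of the resting and interferon gamma lists, while 12 platelet markers rose as before.

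**Figure D4:**
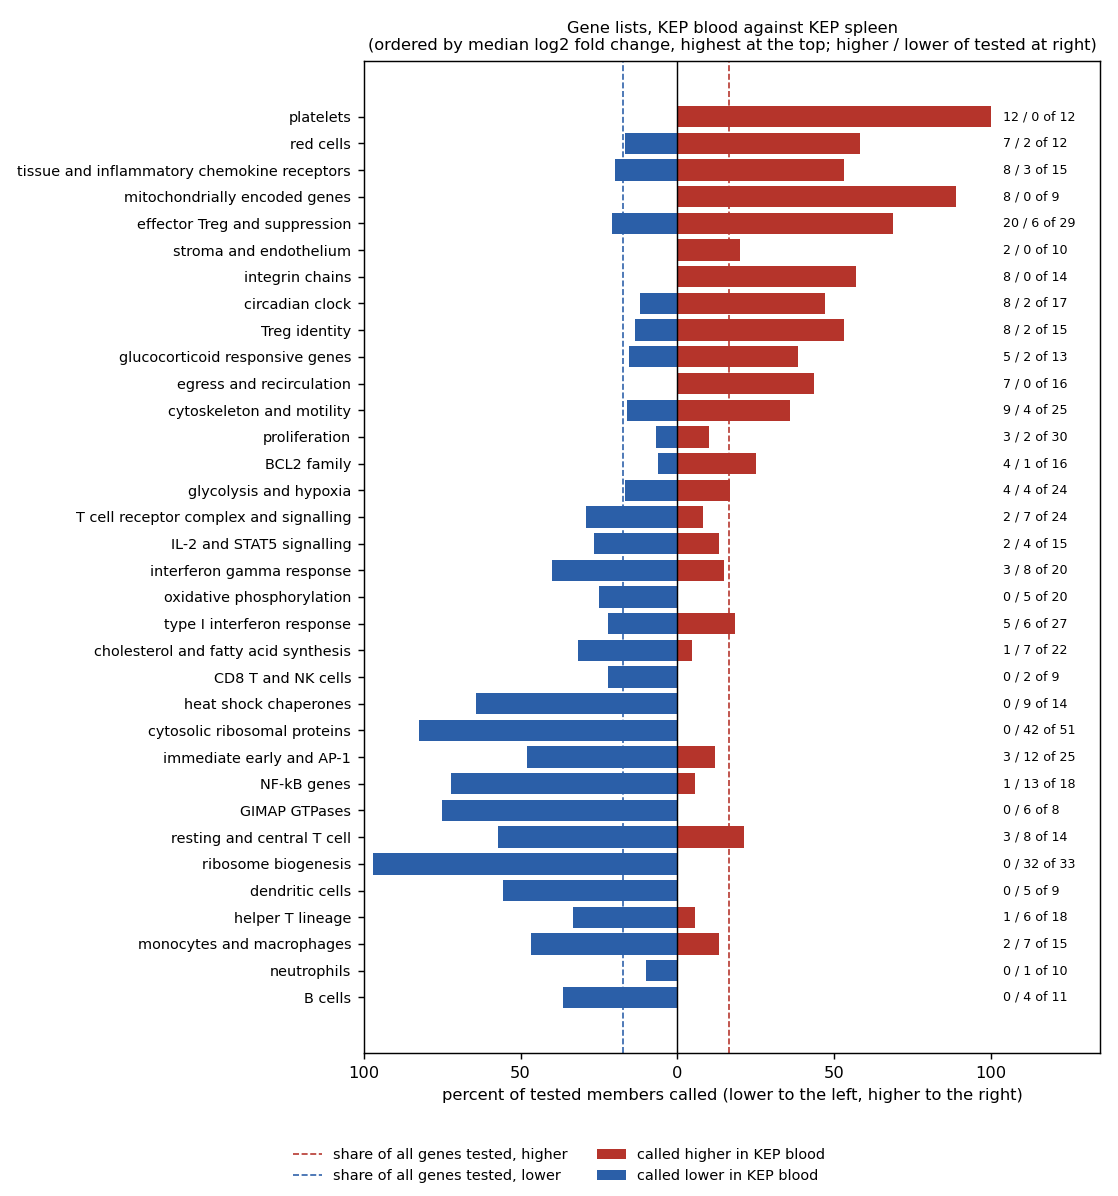
Percent of the tested members of each gene list called higher (right) or lower (left) in KEP blood, for lists with at least 8 tested members, ordered by median log2 fold change with the highest at the top. Dashed lines give the shares of all 12825 genes tested, 16.4% higher and 17.2% lower; effector Treg genes stand at 20 higher and 6 lower of 29, and cytosolic ribosomal proteins at 0 higher and 42 lower of 51.

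The 12 lower genes with the smallest p among those changed at least 2-fold held, beside Egr1, Egr2, Tnf, Relb and Cxcr5, 7 others. Serpina3g, a serine protease inhibitor of lymphocytes, was found at 3.55, 3.88 and 5.63 CPM in KEP blood, against 22.6, 25.3 and 32.9 CPM in KEP spleen (log2 fold change -2.63 ± 0.19). Parp8, an ADP-ribosyltransferase, was found at 13.1, 20.01 and 17.8 CPM in KEP blood, against 40.1, 49.5 and 44.1 CPM in KEP spleen (log2 fold change -1.40 ± 0.09). Dzip1 was found at 10.97, 17.7 and 14.8 CPM in KEP blood, against 36.5, 48.4 and 36.5 CPM in KEP spleen (log2 fold change -1.49 ± 0.11). Their groups were far apart. Zfpm1, the GATA cofactor FOG-1, Synpo, synaptopodin, and Vwa5a had log2 fold changes of -1.20 ± 0.09, -2.03 ± 0.18 and -1.06 ± 0.10. Abi3, an adaptor of the actin-regulating WAVE complex, had one of -1.67 ± 0.14, but most of its exons overlap other genes. Hpn, the protease hepsin, was low in both organs at 0.9402, 0.541 and 0.853 CPM in KEP blood, against 4.31, 5.15 and 5.96 CPM in KEP spleen. Trp53, which the Cre deletes in epithelium, was found at 113, 133 and 121 CPM in KEP blood, against 181, 169 and 174 CPM in KEP spleen (log2 fold change -0.51 ± 0.07). WT mice, which carry no Cre, gave a log2 fold change of -0.40 ± 0.07 for Trp53 (edgeR adjusted p = 0.000138). The difference between the genotypes was not called (edgeR adjusted p = 0.70).

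Tumor-free mice gave a similar count of called genes. Between WT blood and WT spleen, which share no library with the KEP contrast, 4456 genes were called (34.7%). In WT, 5.29% of genes were called and at least 2-fold higher and 2% at least 2-fold lower, against 3.09% and 2.78% in KEP. The test beyond 2-fold passed 240 genes in WT (84.2% higher) and 140 in KEP (65% higher). In both genotypes 2822 genes were called in the same direction, 65.5% of the KEP calls and 63.3% of the WT calls, and 6 were called in opposite directions. Across the 12825 genes the log2 fold changes of the genotypes had a Pearson correlation of 0.68, given as a description since genes are not independent. The falls of Egr2, Egr3 and Tnf and the rises of Il1rl1, Ctla4, Ccr3 and S1pr1 were present in WT mice too, with log2 fold changes of -3.60 ± 0.25, -3.69 ± 0.38, -1.34 ± 0.12, 2.20 ± 0.11, 0.96 ± 0.15, 2.67 ± 0.22 and 0.65 ± 0.09. In the ribosomal protein list 15 fell in WT with a median of -0.11, and the proliferation list had 15 rising with a median of 0.84; the difference between genotypes was called by edgeR for 0 members of these lists, with 34 of 51 ribosomal protein genes and 12 of 30 proliferation genes at an unadjusted p under 0.05 and 2 members of each list called by DESeq2. Over all genes tested 13.3% reached that unadjusted p, as did 7 of 25 immediate early genes, 4 of 18 NF-kB genes, 3 of 12 red cell markers and 0 of 12 platelet markers. Members of a list were measured in the same libraries and are not independent, so these counts are a description as well. The median difference of KEP minus WT was -0.32 for the ribosomal proteins and -0.73 for the proliferation genes. Of the 4456 WT calls 52.6% were higher, and with libraries scaled to the pan-T genes 4177 were called, of which 62.7% were higher.

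The difference between the genotypes, tested as an interaction, passed for 54 genes (0.421%), 6 with a positive and 48 with a negative difference of KEP minus WT. This edgeR count was 0 without the date block (1004 genes at an unadjusted p under 0.05) and 0 in the fit that took in all 31 libraries (587 genes), DESeq2 called 125, and leaving out 1 of the 12 libraries at a time gave 2 to 59. It fell to 2 without the KEP blood library of 18 May, to 14 without that of 12 July, and to 7, 25 and 4 without the KEP spleen libraries of 18 May, 22 June and 12 July. Without WT blood libraries 1, 2 and 3 it was 28, 26 and 11, and without WT spleen libraries 2 and 3 it was 12 and 2. With sorted-cell number in the model it was 5. The genes named next are given as values of a test that rests on the date pairing.

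Among the 54, 23 were called higher in blood in both genotypes, 6 lower in both and 3 in opposite directions. The rest were called in a single genotype. Il1rl1 rose by 1.54 ± 0.10 in KEP mice and by 2.20 ± 0.11 in WT mice (difference -0.66 ± 0.14, edgeR adjusted p = 0.0438). Its WT blood mean was 631 ± 94.5 CPM and its WT spleen mean 137 ± 2.46 CPM (SD, n = 3 each). S100a6, Ccr10 and Sgk1, a kinase gene induced by glucocorticoids, likewise rose less in KEP mice, with differences of -0.88 ± 0.15, -1.33 ± 0.26 and -0.90 ± 0.17. Cxcr5 and Tnf fell further in KEP mice, with differences of -1.21 ± 0.21 and -0.90 ± 0.19. Bcl2 was lower in KEP blood and showed -0.05 ± 0.11 in WT (difference -0.80 ± 0.16). Il2ra differed in direction, 0.31 ± 0.08 in KEP mice and -0.28 ± 0.08 in WT mice (difference 0.59 ± 0.11, edgeR adjusted p = 0.0197). Prdm1 had log2 fold changes of 0.80 ± 0.09 in KEP mice and 0.15 ± 0.09 in WT mice.

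**Figure D5:**
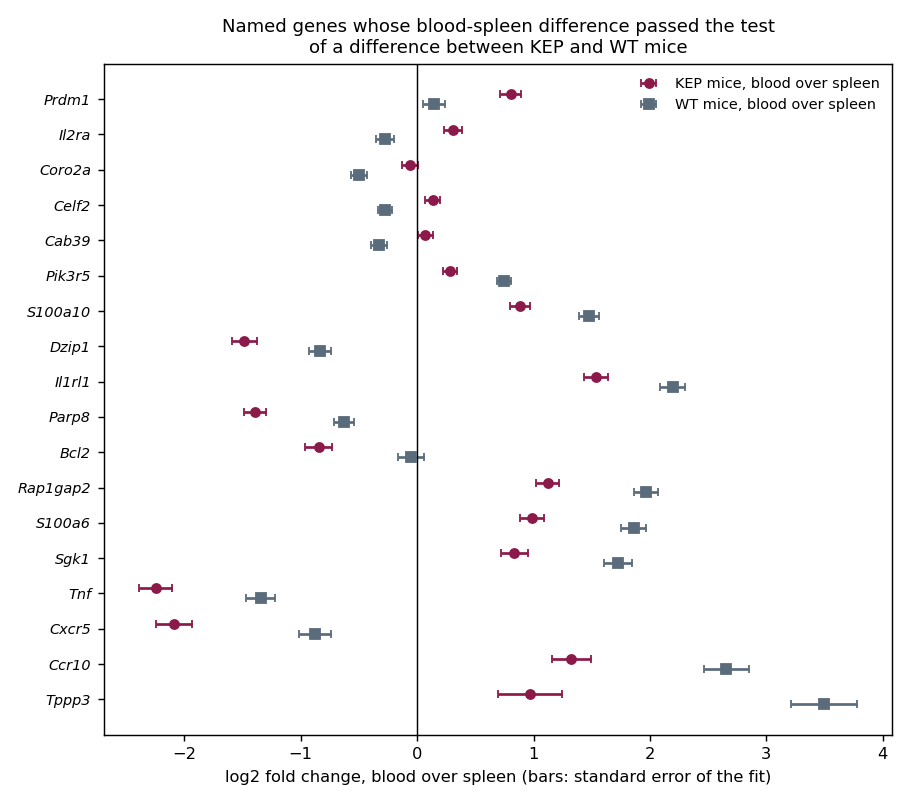
Log2 fold change of blood over spleen, with its standard error, in KEP mice (circles) and WT mice (squares) for 18 named genes that passed the test of a difference between the genotypes. Il2ra lies on opposite sides of 0, Il1rl1, S100a6 and Ccr10 rise less in KEP mice, and Cxcr5 and Tnf fall further in KEP mice.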

How the data were processed

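The deposited table gave raw counts, whole numbers by its values, in 31 libraries over 24594 Ensembl gene IDs. Per the labels' protocols, sorted cells went into a stranded TruSeq mRNA kit and gave single-end reads of 65 bases. TopHat2 2.1.0, TopHat and HTSeq with GRCm38 are named in the submitters' processing notes. The counting strand and annotation release are not given in the sources used here. Genes sharing at least 10% of their exons with another gene are given as uncertain. Gene coordinates are those given in the deposited table, with GRCm38 as the build named by the submitters. Exon overlaps are from GENCODE M21, and promoter windows are from RefSeq.

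From the counts, edgeR 4.0.16 (R 4.3.3) fitted the 24 blood, spleen, lung and lymph node samples (8 groups of genotype and tissue, title date as a block), with TMM factors, filterByExpr at a minimum count of 10, robust quasi-likelihood F tests and Benjamini-Hochberg adjustment, called under 0.05. The dates come from the titles, and same-date correlations over 0.1 in all 3 KEP pairs (0.46 to 0.50) and 3 WT pairs (0.20) back the pairing. The 7 tumor and mammary gland libraries were not part of this fit. Its standard errors were derived from the F statistic, as the size of the log2 fold change divided by the square root of F. The edgeR test of the KEP contrast was run on simulated counts, drawn with the trended spread of the fit and not each gene's own. The WT contrast and the difference between genotypes were not simulated. Alternatives were other scalings and filters, DESeq2 1.42.0, limma 3.58.1, fits without the block, with all 31 libraries or fewer, correction for GC content and length, and leaving out each library.

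Members and gene lists were chosen with earlier results of these data known, and the ribosome biogenesis list after its values were seen. Genes named are the 12 higher and 12 lower with the smallest p among called genes changed at least 2-fold, with at least 5 CPM in an organ and no overlap, outside marker lists, and the 5 of each with the largest change. Added to these are up to 4 called members of each list and direction, genes of the gate and genotype, and the 6 with the smallest p in each direction of the difference between genotypes. Tgfb1, Ebi3, Ccr7, Dusp5, Zfp36 and the list members named only by symbol fall outside that rule and were picked after their values were seen. Replicates of a group differed beyond counting noise (chi-square per degree of freedom of 7.92 to 13.9 in these KEP groups). The fit shares 1 estimate of each gene's spread over KEP libraries of single mice and WT libraries of pools.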

Additional observations from a re-analysis of the deposited data

Results flagged for a closer look

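The blood to spleen difference of 19 genes named here differed between KEP and WT mice by the interaction test of edgeR. Each is given as the log2 fold change in KEP mice minus that in WT mice.

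The difference was negative for Parp8 (-0.77), Tppp3 (-2.52), Rap1gap2 (-0.84), Cxcr5 (-1.21), S100a6 (-0.88), Pik3r5 (-0.47), Sgk1 (-0.90), S100a10 (-0.59), Ccr10 (-1.33), Bcl2 (-0.80), Tnf (-0.90), Dzip1 (-0.65) and Il1rl1 (-0.66). Tppp3, a tubulin-binding protein gene, was low in each library, at 5.75, 3.43 and 3.24 CPM in KEP blood, against 2.03, 2.12 and 1.96 CPM in KEP spleen, with WT means of 12.1 ± 2.92 CPM in blood and 1.07 ± 0.101 CPM in spleen (SD, n = 3 each).

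It was positive for Il2ra (0.59), Prdm1 (0.66), Celf2 (0.41), Coro2a (0.44), Cab39 (0.40) and Cyp11a1 (7.99). The value of Cyp11a1 is a fitted one and no bound, since the gene had 0 reads in the 3 WT blood libraries; it stood at 2.61, 0.361 and 0.938 CPM in KEP blood, against 1.01, 0.303 and 0.157 CPM in KEP spleen. Cyp11a1 encodes the enzyme that starts steroid synthesis. The KEP contrast itself was not called for Cyp11a1, Celf2, Coro2a and Cab39. What set these genes apart between the genotypes was not tested, and KEP libraries from single mice were compared with WT libraries from pools of 3. The sorted-cell numbers of the blood libraries differed between the genotypes as well.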

How the results depend on the processing

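The count of genes called between KEP blood and KEP spleen (4310) stayed within 1.5 times under the alternatives run, except in the fits of all 31 libraries with and without the date block (1427 and 1100) and under a required change beyond 2-fold (140). Without the replicate block it was 3150, and it ran from 3104 to 3987 when 1 library was left out. The count in WT mice (4456) moved to 1537 and 1198 with all 31 libraries, to 2084 with sorted-cell number in the model and to 240 beyond 2-fold, and ran from 3411 to 4044 with 1 library left out. The difference between genotypes (54) was the least stable: 449 with no filter on low counts, 0 without the replicate block, 0 and 0 with all 31 libraries, 125 by DESeq2, 32 by limma-voom, 0 by limma-voom with the date as a random block, 5 with sorted-cell number in the model, 0 beyond 2-fold, 103 with the 12 compared libraries alone, and 2 to 59 with 1 library left out. Correction for GC content and length gave 64. The cause of these shifts was not tested. Of the 202 named genes called in KEP mice, 161 kept the call whichever KEP library was left out, 34 lost it without the replicate block, 102 with all 31 libraries and the block, and 6 by DESeq2. Among genes, the sign changed for Celf2 (-0.00898) and Coro2a (0.00902) with the GC correction and, when 1 library was left out, for Cd8a (-0.565 to 0.563, among them 0.168 without the KEP blood library of 12 July), none of which was called in KEP mice. Among lists it changed for the neutrophil median (-1.51 to 0.204, highest without the KEP spleen library of 12 July) and the mast cell median (-0.115 to 1.29, lowest without the KEP blood library of 22 June). The mast cell median was -0.332 in the KEP libraries alone. Medians near 0 crossed it as well: that of proliferation genes ran from -0.139 to 0.464 with 1 KEP library left out and was -0.0875 without the replicate block, that of cytoskeleton genes ran from -0.0106 to 0.0789 and that of glycolysis genes from -0.0615 to 0.0308, and with the GC correction glycolysis stood at 0.0568 and the BCL2 family at 0.05. With 3 libraries a group, genes of few reads such as C1qa, Kdr and Car1 are limited by depth.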
